A study of Homo sapiens with 24 samples.

Results

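The genes described here are 9 secreted inflammatory signals: the chemokines CXCL1, CXCL2, CXCL3, CXCL5, CXCL8 and CCL20, and the cytokines IL1A, IL1B and IL6. They were found by matching the Ensembl identifier of each row, without its version, to these symbols, which gave 9 of the 60668 rows of the count table. The cells were MCF-10A, an immortalised human mammary epithelial line, and the same line carrying MYC-ER, a MYC protein fused to an oestrogen receptor domain, which stays inactive until 4-hydroxytamoxifen (4-OHT) binds it. Both lines were grown in 3D on growth factor-reduced Matrigel and were collected together on day 5, after 0, 8, 24 or 48 h in 1 µM 4-OHT, which was first added on day 3. This gave 8 groups of 3 libraries: parental MCF-10A at 0, 8, 24 and 48 h and MCF-10A MYC-ER at 0, 8, 24 and 48 h. The parental groups received the same 4-OHT and carry no fusion. The labels do not state the promoter that drives the fusion, whether the MYC-ER line is a clone or a pool, or whether the 0 h groups received solvent. The replicates were wells seeded in parallel, so the p-values measure the spread between these samples, which may be technical.

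Chemokines are small secreted proteins that guide leukocytes along a gradient. CXCL1, CXCL2, CXCL3, CXCL5 and CXCL8 act through CXCR1 and CXCR2 and mainly attract neutrophils, and CCL20 acts through CCR6 on lymphocytes and dendritic cells. IL-1 alpha and IL-1 beta, made from IL1A and IL1B, bind the receptor IL1R1 with its partner IL1RAP and switch on NF-kB, the factor best known for driving transcription of this whole set. Epithelial cells store IL-1 alpha as a preformed alarm signal, and the mRNAs of these genes are short-lived because AU-rich elements in their 3′ untranslated regions (UTRs) recruit decay factors.

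The 5 CXC genes lie in a cluster on chromosome 4, from CXCL8 (ENSG00000169429.11, positions 73740506 to 73743716, plus strand) through CXCL1 (ENSG00000163739.5, 73869393 to 73871242, plus strand), CXCL5 (ENSG00000163735.7, 73995642 to 73998779, minus strand) and CXCL3 (ENSG00000163734.4, 74036589 to 74038807, minus strand) to CXCL2 (ENSG00000081041.9, 74097035 to 74099293, minus strand), with identifiers as deposited and positions from GENCODE v29 in GRCh38. CCL20 (ENSG00000115009.13, 227805739 to 227817564, plus strand), IL1A (ENSG00000115008.5, 112773915 to 112784590, minus strand) and IL1B (ENSG00000125538.12, 112829751 to 112836903, minus strand) are on chromosome 2. IL6 (ENSG00000136244.12, 22725884 to 22732002, plus strand) is on chromosome 7. The coding sequences of CXCL1 and CXCL2 were identical at 93.5% of aligned bases, those of CXCL2 and CXCL3 at 94.4% and those of CXCL1 and CXCL3 at 90.7%, whereas CXCL8 shared 50.3% to 52.8% with these genes. Despite that likeness, no stretch of 150 bases, the read length, in the transcripts of 8 of the genes occurred in another gene. IL6 was the exception, sharing 16.5% of such stretches with AC073072.1.

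The promoters of the genes whose levels moved most are shown. CXCL1, CXCL2 and CXCL3 carry the same 11 bases at nearly the same distance from the start, and CXCL8 and CCL20 do not. CXCL5, which is not shown, carries these bases too, and whether they bear on the levels was not tested. Each run holds the 250 bases before the RefSeq transcription start in GRCh38.p14, 5′ to 3′ on the gene's strand, and capitals mark matches to the NF-kB consensus or to GGAANTTCC. GENCODE v29 also holds longer transcripts of CXCL2, CXCL3, CXCL8 and CCL20 that begin upstream of the RefSeq start.
CXCL1 promoter (chr4:73869143-73869392, plus strand): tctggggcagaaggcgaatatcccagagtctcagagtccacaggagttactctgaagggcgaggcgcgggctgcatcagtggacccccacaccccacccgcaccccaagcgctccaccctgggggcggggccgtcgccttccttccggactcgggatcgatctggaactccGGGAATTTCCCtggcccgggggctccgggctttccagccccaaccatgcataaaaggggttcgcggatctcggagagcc
CXCL2 promoter (chr4:74099196-74099445, minus strand): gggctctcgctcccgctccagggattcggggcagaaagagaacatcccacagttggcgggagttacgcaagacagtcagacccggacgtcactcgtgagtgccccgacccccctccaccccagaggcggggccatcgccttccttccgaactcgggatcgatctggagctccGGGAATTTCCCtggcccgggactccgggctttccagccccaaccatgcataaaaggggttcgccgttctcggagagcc
CXCL3 promoter (chr4:74038690-74038939, minus strand): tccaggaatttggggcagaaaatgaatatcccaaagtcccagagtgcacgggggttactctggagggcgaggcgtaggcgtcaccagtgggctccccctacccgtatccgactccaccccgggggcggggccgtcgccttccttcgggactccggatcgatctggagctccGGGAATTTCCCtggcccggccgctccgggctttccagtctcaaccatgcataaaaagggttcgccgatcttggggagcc
CXCL8 promoter (chr4:73740319-73740568, plus strand): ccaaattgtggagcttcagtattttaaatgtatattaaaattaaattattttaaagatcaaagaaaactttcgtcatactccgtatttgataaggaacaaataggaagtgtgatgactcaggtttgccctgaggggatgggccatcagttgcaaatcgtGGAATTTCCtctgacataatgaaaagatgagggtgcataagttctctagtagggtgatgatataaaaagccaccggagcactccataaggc
CCL20 promoter (chr2:227813592-227813841, plus strand): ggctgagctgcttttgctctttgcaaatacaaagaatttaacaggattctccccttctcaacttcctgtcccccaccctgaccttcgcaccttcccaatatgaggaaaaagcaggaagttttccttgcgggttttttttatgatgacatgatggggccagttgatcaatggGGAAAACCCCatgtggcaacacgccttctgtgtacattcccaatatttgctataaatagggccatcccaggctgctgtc

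CXCL1, CXCL2, CXCL3 and CXCL5 each held GGGAATTTCCC, whose first base lay 79 bases before the start in CXCL1 and CXCL3, 78 in CXCL2 and 91 in CXCL5. CXCL8 held the shorter GGAATTTCC at 91 bases, an AP-1 match TGACTCA at 137 bases and a TATAAA box at 31 bases. CCL20 held GGAAAACCCC at 79 bases and TATAAA at 29 bases. Among 35116 promoters of this length, the NF-kB consensus was found in 5.21% and in 6 of the 9 genes, and GGAANTTCC in 0.826% and in 5 of the 9 genes, the matches of these motifs overlapping each other. AP-1 sites (TGANTCA) were found in 6.57% of promoters and in 2 of the 9 genes, CXCL8 and IL1A. The E-box CACGTG, the sequence MYC binds best, was found in 6.34% of promoters and in 0 of the 9 genes. TATAAA, searched on the gene's strand only, was found in 6.80% of promoters and 3 of the 9 genes. The other motifs were searched on both strands.

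The 3′ UTRs are represented by the 30 bases richest in ATTTA, the core of the AU-rich element, which is written in capitals. CXCL2 held 5 overlapping copies in a row, IL1B and CXCL1 3 copies.
CXCL1 3′ UTR stretch: cttaggagaagtcttctATTTATTTATTTA
CXCL2 3′ UTR stretch: aagtcttctATTTATTTATTTATTTATTTA
CXCL8 3′ UTR stretch: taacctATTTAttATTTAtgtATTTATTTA
IL1A 3′ UTR stretch: tATTTAtatatgtATTTAtaaatatATTTA
IL1B 3′ UTR stretch: tgagcaaccgcttccctATTTATTTATTTA
The longer element TATTTAT occurred at least once in the transcripts of all 9 genes and at least 2 times in 8 of them, the exception being CCL20. Over 19659 protein-coding genes these shares were 34.4% and 15.0%.

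Each library held 136860029 to 182438505 counts, and levels are given as CPM, the count scaled to a fixed library total, after TMM scaling, which keeps libraries comparable when a few genes take a large share. A count of 0 in the smallest library allows a level of up to 0.0219 CPM (3 counts), for counting error only. All replicate pairs differed by more than sampling noise (chi-square per degree of freedom 8.93 to 285, highest within parental 0 h). The 8 epithelial markers examined were above 1 CPM in every group, with EPCAM lowest at 1.73 to 77.8 CPM across the libraries. Of the leukocyte markers, CD3E, MS4A1 and TYROBP were at 0 in 24 libraries. PTPRC had at most 2 counts and LYZ at most 10. In contrast, CD14 stood at 2.87 to 9.03 CPM, CD68 at 4.20 to 23.6 CPM and ITGAM at 0.152 to 6.32 CPM. Of the endothelial markers, CDH5 was at 0 in all libraries and the summed level of the 4 genes was at most 2.32 CPM. The fibroblast list was led by COL1A1 (53.6 to 220 CPM) and DCN (21.0 to 157 CPM), with COL1A2 and COL3A1 at no more than 9 counts. The summed level of its 7 genes was 370 to 377 CPM in MYC-ER at 0 h, 102 to 109 CPM at 8 h, 79.9 to 91.8 CPM at 24 h and 121 to 130 CPM at 48 h. This sum fell alongside CXCL1 and CXCL2 but returned only in part. CXCL1 and CXCL2 were back at or above their untreated level at 48 h. The part of the fibroblast list in their levels was not tested. In the parental groups the sum was 77.3 to 133 CPM.

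Transcripts of 7 of the 9 genes were present at usable levels in both lines, and IL1A was the most abundant in most groups. Per kilobase of transcript, IL1A had the highest level of the 9 genes in 6 of the 8 groups, from 8.83 CPM per kilobase in MYC-ER at 24 h to 33.2 in parental cells at 24 h. CXCL2 exceeded it in MYC-ER cells at 0 h (18.0 against 12.9 CPM per kilobase) and at 48 h (27.6 against 20.4). CXCL8, CXCL3 and IL1B stayed at or under 3.19 CPM per kilobase in every group. In MYC-ER cells, CXCL1 and CXCL2 were high before treatment, low at 24 h and high again at 48 h. CXCL3 was low at 24 h and close to its untreated level at 8 and 48 h. CXCL8, CCL20 and IL1A peaked at 8 h, and IL1B was highest at 48 h. Of these 7 genes, 6 fell from 8 to 24 h, and all 7 rose from 24 to 48 h.

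**Figure D1:**
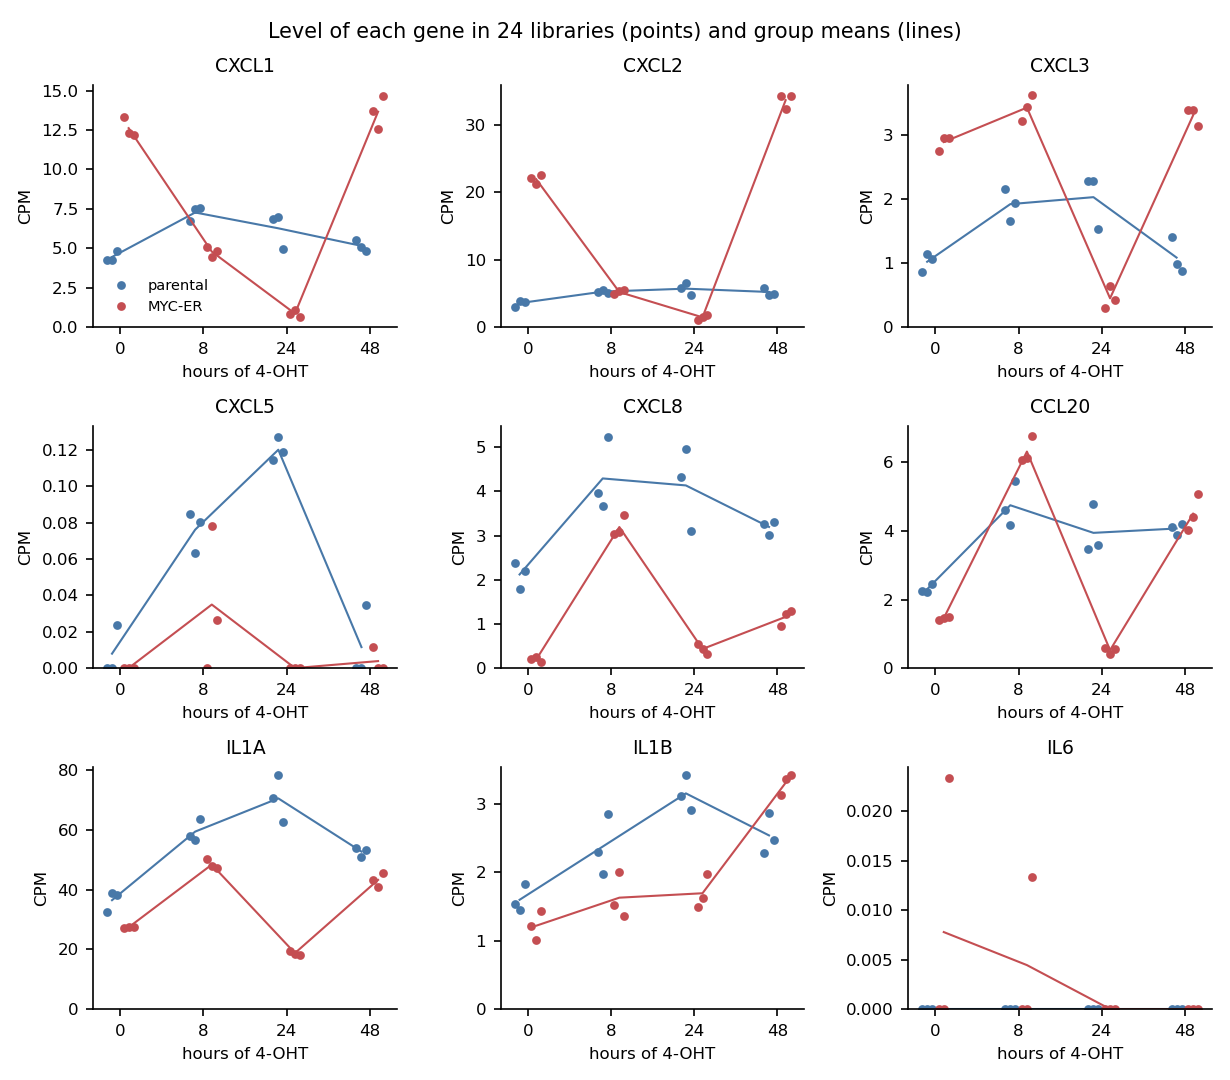
Level of each of the 9 genes in CPM (vertical axes, each starting at 0) by hours of 4-OHT in parental (blue) and MYC-ER (red) cells, with points for libraries and lines through group means. MYC-ER CXCL2 runs from 21.2 to 22.5 CPM at 0 h to 1.11 to 1.81 CPM at 24 h and 32.3 to 34.3 CPM at 48 h, while parental CXCL2 stays between 3.03 and 6.55 CPM.

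CXCL1, also known as GRO alpha, is a neutrophil chemoattractant. In MYC-ER cells it stood at 13.3, 12.3 and 12.2 CPM at 0 h, 5.08, 4.45 and 4.84 at 8 h, 0.844, 1.06 and 0.667 at 24 h, and 13.7, 12.6 and 14.7 at 48 h. Every 24 h library was below every library of the other 7 groups, and the 48 h and 0 h libraries overlapped. The fall was 2.64-fold at 8 h (log2 change -1.40, SE 0.13, adjusted p 3.9e-09, edgeR's quasi-likelihood test) and 14.7-fold at 24 h (-3.88, SE 0.15, adjusted p 1.1e-15). At 48 h the difference from 0 h was 0.11 on the log2 scale (SE 0.13, adjusted p 0.51). In bulk RNA, fewer cells making a transcript and less transcript per cell cannot be told apart.

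CXCL2, or GRO beta, made the widest swing of the set. Its MYC-ER libraries held 22.03, 21.2 and 22.5 CPM at 0 h, 4.85, 5.27 and 5.43 at 8 h, 1.11, 1.42 and 1.81 at 24 h, and 34.3, 32.3 and 34.2 at 48 h. No 2 of these times overlapped. The level fell 4.22-fold by 8 h (log2 change -2.08, SE 0.13, adjusted p 7.5e-12) and 15.2-fold by 24 h (-3.92, SE 0.15, adjusted p 8.4e-16), rose 23.3-fold from 24 to 48 h (4.54, SE 0.15, adjusted p 5.3e-16), and at 48 h was 1.53-fold above 0 h (0.62, SE 0.13, adjusted p 4.4e-04).

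CXCL3, or GRO gamma, shared the trough at 24 h but not the fall at 8 h. It stood at 2.76, 2.97 and 2.96 CPM at 0 h, 3.23, 3.45 and 3.63 at 8 h, 0.297, 0.638 and 0.417 at 24 h, and 3.403, 3.395 and 3.15 at 48 h. The 24 h libraries were below all the others, and the 8 h and 48 h libraries were slightly above the untreated ones. The fall at 24 h was 6.43-fold (log2 change -2.69, SE 0.23, adjusted p 8.6e-10). The log2 difference from untreated cells was 0.25 after 8 h (SE 0.21, adjusted p 0.30) and 0.20 after 48 h (SE 0.21, adjusted p 0.48). Fitted on the MYC-ER 0 h and 8 h libraries alone, the first of these passed (0.28, adjusted p 0.029).

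CXCL5, also called ENA-78, was close to absent. Its counts in MYC-ER cells were 0, 0 and 0 at 0 h, 0, 11 and 4 at 8 h, 0, 0 and 0 at 24 h, and 2, 0 and 0 at 48 h. In parental cells they were 0, 0 and 4 at 0 h, 13, 10 and 13 at 8 h, 19, 19 and 19 at 24 h, and 0, 0 and 5 at 48 h. The parental 8 h and 24 h libraries were above the parental libraries of the other times. CXCL5 passed the filter on low counts through these groups, so that it had to differ somewhere. It received 4 calls: higher at 8 h in MYC-ER (adjusted p 0.021), lower from 8 to 24 h in MYC-ER (adjusted p 0.028), higher at 24 h in parental cells (adjusted p 0.029) and lower in MYC-ER at 24 h than in parental cells (adjusted p 0.0037). All 4 rest on at most 19 counts a library, so no fold is given and CXCL5 is left out of the counts and medians over the set.

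CXCL8, or interleukin 8, is the most studied neutrophil attractant and moved differently from CXCL1 and CXCL2. MYC-ER libraries held 0.197, 0.244 and 0.140 CPM at 0 h, 3.04, 3.07 and 3.47 at 8 h, 0.547, 0.442 and 0.308 at 24 h, and 0.957, 1.22 and 1.30 at 48 h. All libraries of the treated groups were above the untreated ones, with no overlap between any 2 times. The rise was 16.4-fold at 8 h (log2 change 4.04, SE 0.24, adjusted p 1.8e-12), 2.23-fold at 24 h (1.16, SE 0.24, adjusted p 2.3e-04) and 5.96-fold at 48 h (2.57, SE 0.23, adjusted p 8.0e-09). The untreated level rests on 24 to 43 counts a library.

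CCL20, the ligand of CCR6, peaked with CXCL8 at 8 h but fell below its untreated level at 24 h. It stood at 1.40, 1.47 and 1.49 CPM at 0 h, 6.07, 6.12 and 6.76 at 8 h, 0.582, 0.417 and 0.570 at 24 h, and 4.03, 4.39 and 5.09 at 48 h in MYC-ER cells. The 8 h libraries were the highest of the whole series for this gene and the 24 h libraries the lowest. The level rose 4.34-fold at 8 h (log2 change 2.12, SE 0.14, adjusted p 1.2e-11), was 2.78-fold below 0 h at 24 h (-1.47, SE 0.15, adjusted p 1.2e-08) and 3.09-fold above it at 48 h (1.63, SE 0.14, adjusted p 3.0e-09).

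IL1A followed the timing of CCL20 over a narrower range. The MYC-ER libraries held 27.1, 27.6 and 27.5 CPM at 0 h, 50.2, 47.8 and 47.2 at 8 h, 19.6, 18.5 and 18.2 at 24 h, and 43.4, 41.0 and 45.4 at 48 h. The 4 times did not overlap. IL1A rose 1.77-fold at 8 h (log2 change 0.82, SE 0.07, adjusted p 1.4e-09), fell to 1.46-fold below 0 h at 24 h (-0.55, SE 0.07, adjusted p 1.0e-06) and stood 1.58-fold above it at 48 h (0.66, SE 0.07, adjusted p 1.4e-07).

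IL1B, whose product must be cleaved by caspase-1 before release, changed late. Its MYC-ER libraries held 1.21, 1.00 and 1.44 CPM at 0 h, 1.53, 2.001 and 1.35 at 8 h, 1.48, 1.62 and 1.97 at 24 h, and 3.13, 3.36 and 3.42 at 48 h. The 48 h libraries were above all other MYC-ER libraries, while the 8 h libraries overlapped the untreated range and the 24 h libraries lay just above it. The rise at 48 h was 2.71-fold (log2 change 1.44, SE 0.17, adjusted p 4.3e-07). The rises at 8 h (0.42, SE 0.17, adjusted p 0.035) and 24 h (0.47, SE 0.17, adjusted p 0.020) were small. The first was lost without MYC-ER 8 h replicate 2 (0.24, adjusted p 0.24), MYC-ER 0 h replicate 2 (0.30, adjusted p 0.17) or MYC-ER 0 h replicate 1 (0.42, adjusted p 0.073). It was also lost under library size alone (0.33, adjusted p 0.093) or upper-quartile scaling (0.28, adjusted p 0.17). The same held with no filter (0.43, adjusted p 0.053) or in a fit of only these groups (0.45, adjusted p 0.062). The rise at 24 h was lost without MYC-ER 0 h replicate 2 (0.35, adjusted p 0.11) or MYC-ER 24 h replicate 3 (0.35, adjusted p 0.12). Removing trends on GC content and transcript length lost it too (0.37, adjusted p 0.058).

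IL6, which signals through IL6R and IL6ST, was at 0 counts in 22 libraries. MYC-ER 0 h replicate 3 held 4 counts and MYC-ER 8 h replicate 3 held 2. It did not pass the filter on low counts, so 8 of the 9 genes were tested.

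Counted over the 7 genes without CXCL5 and IL6, at an adjusted p under 0.05, 4 rose and 2 fell in MYC-ER cells at 8 h, where 67.6% of all 22158 genes tested changed, 32.2% higher and 35.4% lower. At 24 h 2 of the 7 were higher and 5 lower than at 0 h, against 61.6% of all genes changed, 30.4% higher and 31.2% lower. At 48 h 5 were higher and 0 lower, against 44.1% of all genes, 23.4% higher and 20.7% lower. With so many genes past the test, the number of genes called in the set says little by itself, and the directions and levels are given as a description. Between 8 and 24 h 6 of the 7 fell and 0 rose, where 55.5% of all genes changed, 27.1% lower and 28.4% higher. Between 24 and 48 h 7 rose and 0 fell, where 53.7% changed, 28.2% higher and 25.5% lower. The median log2 change of the 7 genes from 0 h was 0.42 after 8 h, then -1.47, then 0.66 after 48 h, against medians over all genes of -0.10, -0.02 and 0.03. From 24 to 48 h their median was 2.88, against 0.06 over all genes.

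**Figure D2:**
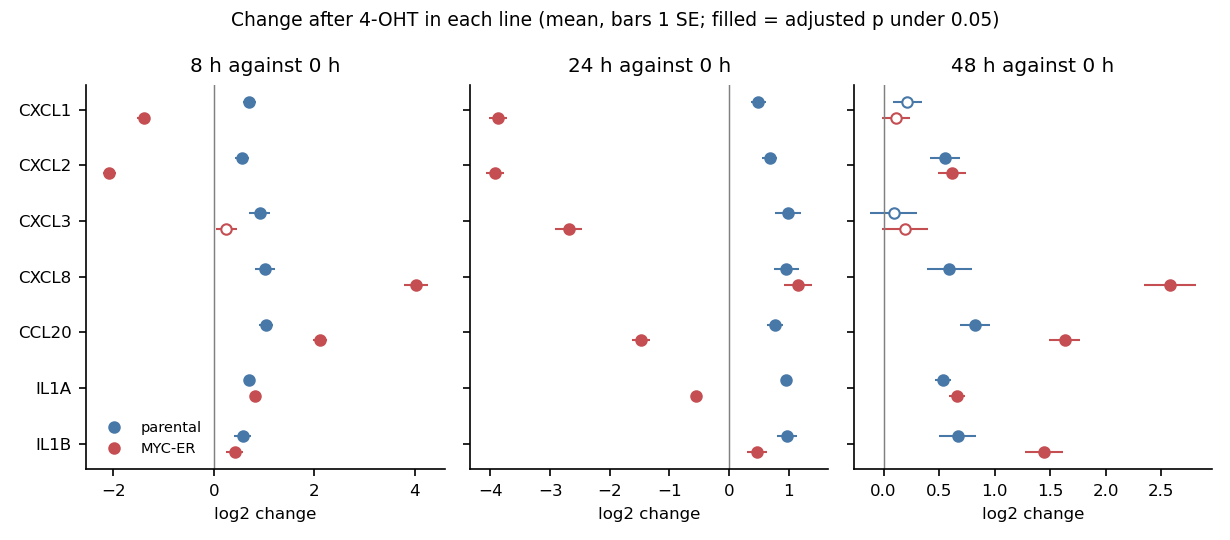
Log2 change from 0 h after 8, 24 and 48 h of 4-OHT (horizontal axes) for 7 genes in parental (blue) and MYC-ER (red) cells, bars 1 SE, filled symbols where the adjusted p was under 0.05. At 24 h MYC-ER CXCL1 sits at -3.88 and CXCL2 at -3.92, whereas all 7 parental values lie between 0.49 and 0.99.

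Parental cells carry no fusion and were given the same 4-OHT. Over the time course the 7 genes spanned a narrower range in them than in MYC-ER cells. Highest over lowest group mean was 1.60-fold (CXCL2) to 2.06-fold (CCL20), against 2.58-fold (IL1A) to 23.2-fold (CXCL2) in MYC-ER. Single changes from 0 h were not always smaller: at 8 h the median log2 change was 0.71, against 0.42 in MYC-ER. All parental estimates were upward. They share the same untreated group, and their cause was not tested. Libraries were sequenced 3 to a lane, and the labels do not give the lane of each library. A lane difference can therefore not be told apart from a group difference. IL1A held 32.5, 38.9 and 38.1 CPM at 0 h, 57.9, 56.7 and 63.7 at 8 h, 70.7, 78.2 and 62.8 at 24 h, and 54.0, 50.9 and 53.4 at 48 h. The untreated libraries were the lowest at each comparison, and the rise was 1.63-fold at 8 h (log2 change 0.70, SE 0.07, adjusted p 8.2e-07) and 1.93-fold at 24 h (0.95, SE 0.07, adjusted p 1.3e-08).

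CXCL8 stood at 2.37, 1.78 and 2.20 CPM at 0 h, 3.97, 3.67 and 5.24 at 8 h, 4.33, 4.96 and 3.11 at 24 h, and 3.26, 3.02 and 3.31 at 48 h. CCL20 stood at 2.24, 2.21 and 2.46 CPM at 0 h, 4.62, 4.17 and 5.45 at 8 h, 3.47, 4.78 and 3.58 at 24 h, and 4.12, 3.89 and 4.20 at 48 h. In both genes every treated library was above every untreated one. The 8 h rises were 2.03-fold for CXCL8 (log2 change 1.02, SE 0.20, adjusted p 7.7e-04) and 2.06-fold for CCL20 (1.05, SE 0.14, adjusted p 1.3e-05).

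CXCL1 stood at 4.28, 4.23 and 4.83 CPM at 0 h, 6.72, 7.51 and 7.58 at 8 h, 6.84, 6.98 and 4.97 at 24 h, and 5.53, 5.08 and 4.84 at 48 h. CXCL2 held 3.03, 3.902 and 3.72 CPM at 0 h, 5.16, 5.48 and 5.10 at 8 h, 5.84, 6.55 and 4.69 at 24 h, and 5.81, 4.83 and 4.96 at 48 h. Treated libraries of both genes were above all untreated ones, narrowly for CXCL1 at 48 h. That CXCL1 change did not pass the threshold in edgeR (log2 change 0.21, SE 0.13, adjusted p 0.21). The largest of these changes was 1.63-fold for CXCL1 (8 h) and 1.60-fold for CXCL2 (24 h).

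CXCL3 stood at 0.865, 1.14 and 1.06 CPM at 0 h, 2.17, 1.66 and 1.95 at 8 h, 2.28, 2.29 and 1.53 at 24 h, and 1.40, 0.980 and 0.879 at 48 h. IL1B stood at 1.53, 1.44 and 1.82 CPM at 0 h, 2.30, 1.98 and 2.85 at 8 h, 3.12, 3.42 and 2.91 at 24 h, and 2.28, 2.86 and 2.47 at 48 h. CXCL3 was up about as much at 8 h as at 24 h and overlapped its untreated range at 48 h, and IL1B was highest at 24 h. The IL1B rise at 8 h (log2 change 0.57, adjusted p 0.013) was lost without parental 0 h replicate 1 (0.54, adjusted p 0.054) or parental 8 h replicate 3 (0.42, adjusted p 0.094).

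Over the same 7 genes, 7 rose in parental cells at 8 h and 0 fell, where 31.0% of all genes changed, 15.0% higher and 16.0% lower. At 24 h 7 rose and 0 fell, against 42.9% of all genes changed, 21.2% higher and 21.7% lower. At 48 h 5 rose and 0 fell, against 40.5% of all genes changed, 20.4% higher and 20.1% lower. Their median log2 change was 0.71, 0.95 and 0.55, against medians over all genes of -0.0016, -0.03 and -0.0016. Parental changes across genes moved with base composition: over 9784 genes of at least 10 CPM, Spearman's rho between the log2 change and the GC content of the transcript was -0.636, -0.676 and -0.667 after 8, 24 and 48 h, a description across genes, which are not independent. The corresponding MYC-ER values were 0.0147, -0.0634 and 0.0309. For the difference between the lines rho was -0.263 at 0 h, and -0.0165, 0.0196 and 0.129 at 8, 24 and 48 h. For the MYC-ER change minus the parental one it was 0.236, 0.258 and 0.475 at 8, 24 and 48 h. The transcripts of CXCL8 (33.4% GC), CCL20 (35.5%), CXCL5 (37.6%) and IL1A (39.1%) are among the poorest in GC, at percentiles 0.833, 2.38, 6.37 and 10.9 of the genes with known composition, while those of the remaining 5 genes lie between 44.5% and 46.0%.

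With each library's trend on GC content removed, a fit chosen after seeing the data, 7, 5 and 3 of these genes rose in parental cells at 8, 24 and 48 h. The calls lost were CXCL8 at 24 h (log2 change 0.53, adjusted p 0.078) and 48 h (0.06, adjusted p 0.88) and CCL20 at 24 h (0.38, adjusted p 0.067) and 48 h (0.36, adjusted p 0.083). The GC-poor IL1A kept its call at all 3 times, with smaller changes of 0.47, 0.63 and 0.20. The rise of CXCL8 at 48 h without this step (0.59, adjusted p 0.023) was also lost without parental 0 h replicate 2 (0.48, adjusted p 0.088), 48 h replicate 1 (0.58, adjusted p 0.055) or 48 h replicate 3 (0.56, adjusted p 0.060).

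**Figure D3:**
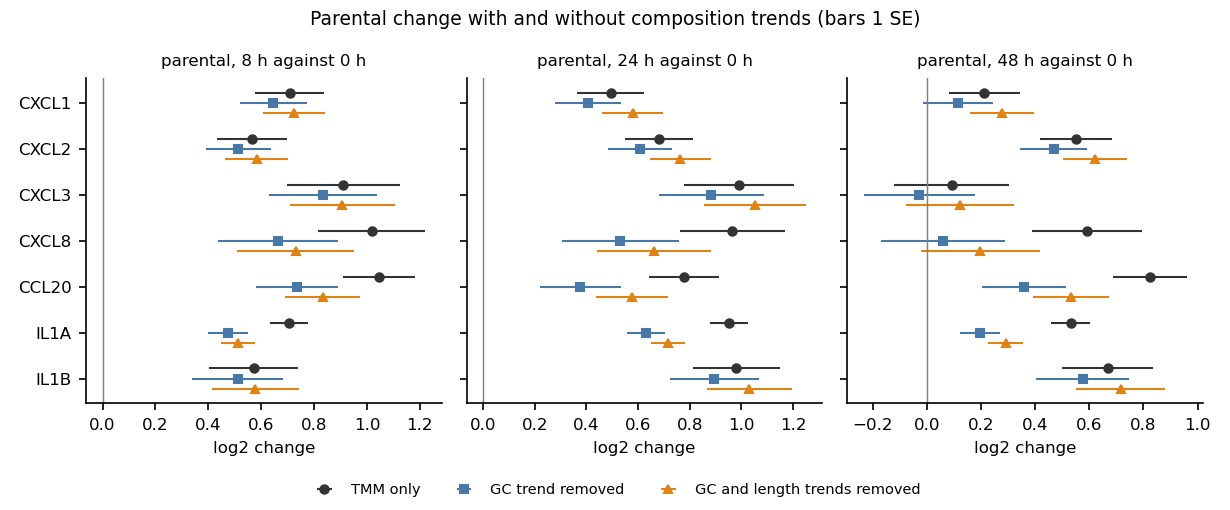
Log2 change from 0 h in parental cells (horizontal axes, bars 1 SE) for 7 genes after 8, 24 and 48 h, with TMM scaling only (black), with the trend on GC content removed (blue) and with trends on GC content and length removed (orange). CXCL8 at 48 h moves from 0.59 to 0.06 when the GC trend is removed, and IL1B at 24 h from 0.98 to 0.90.

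The lines already differed before treatment, and not in the same way for all chemokines. At 0 h the MYC-ER line had more CXCL1 (2.84-fold, log2 difference 1.504, SE 0.13, adjusted p 1.5e-09), CXCL2 (6.17-fold, 2.62, SE 0.14, adjusted p 2.8e-13) and CXCL3 (2.83-fold, 1.501, SE 0.21, adjusted p 2.4e-06) than the parental line. It had 10.9-fold less CXCL8 (log2 difference -3.44, SE 0.24, adjusted p 2.8e-11), 1.58-fold less CCL20 (-0.66, SE 0.14, adjusted p 2.5e-04) and 1.33-fold less IL1A (-0.41, SE 0.07, adjusted p 3.4e-05). For these 6 genes the libraries of the 2 lines did not overlap. IL1B lay at the threshold (-0.39, SE 0.17, adjusted p 0.04996), and that call was lost in most other fits. In all, 3 members were higher and 4 lower, where 64.3% of all genes differed, 31.6% higher and 32.7% lower.

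At 8 h the lines were closer. CXCL1 was lower in MYC-ER (log2 difference -0.60, SE 0.13, adjusted p 5.7e-04), CXCL3 was higher (0.84, SE 0.21, adjusted p 0.0021) and IL1A was lower (-0.30, SE 0.07, adjusted p 0.0016). CCL20 was higher (0.41, adjusted p 0.015) and IL1B lower (-0.54, adjusted p 0.011), 5 members in all, 2 higher and 3 lower, where 48.6% of all genes differed, 23.1% higher and 25.5% lower. The count fell to 3 without MYC-ER 8 h replicate 3, as CCL20 (0.36, adjusted p 0.061) and IL1B (-0.43, adjusted p 0.068) were then not past the threshold. CCL20 was also not past it without parental 8 h replicate 2 (0.33, adjusted p 0.084), nor IL1B without parental 8 h replicate 3 (-0.39, adjusted p 0.085). The estimate for CXCL2 was -0.02 (SE 0.13, adjusted p 0.93) and for CXCL8 -0.43 (SE 0.20, adjusted p 0.086). CXCL8 passed the threshold in a fit of only these groups (-0.43, adjusted p 0.026), under library size alone (-0.51, adjusted p 0.041) and with at least 10 counts required in every library (-0.45, adjusted p 0.047).

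At 24 h the MYC-ER line had less of all 7 genes, 0 higher and 7 lower, where 49.4% of all genes differed, 23.5% higher and 25.8% lower. CXCL8 was 9.53-fold lower (log2 difference -3.25, SE 0.23, adjusted p 8.1e-11), CCL20 7.52-fold (-2.91, SE 0.15, adjusted p 6.6e-13), CXCL1 7.30-fold (-2.87, SE 0.14, adjusted p 4.4e-13) and CXCL3 4.52-fold (-2.17, SE 0.22, adjusted p 4.4e-08). CXCL2 (3.94-fold), IL1A (3.76-fold) and IL1B (1.86-fold) differed less. In each of these 7 genes the highest MYC-ER library at 24 h was below the lowest parental library at 24 h.

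At 48 h the pattern of the untreated cells was back in part. CXCL1 (2.65-fold), CXCL2 (6.46-fold) and CXCL3 (3.04-fold) were again higher in MYC-ER, and CXCL8 was 2.76-fold lower (log2 difference -1.46, SE 0.21, adjusted p 3.2e-06). IL1A was lower by a log2 difference of -0.29 (adjusted p 0.0018), which was not past the threshold under library size alone or upper-quartile scaling (-0.14 in both, adjusted p 0.11 and 0.10). The estimates for CCL20 (0.15, adjusted p 0.37) and IL1B (0.38, adjusted p 0.056) did not pass the threshold. IL1B did pass it in several other fits. These ran from 0.38 without parental 8 h replicate 3 (adjusted p 0.049) to 0.53 under library size alone (adjusted p 0.011). DESeq2's Wald test gave 0.39 (adjusted p 0.036). In all, 3 members were higher and 2 lower, where 56.7% of all genes differed, 27.3% higher and 29.4% lower.

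**Figure D4:**
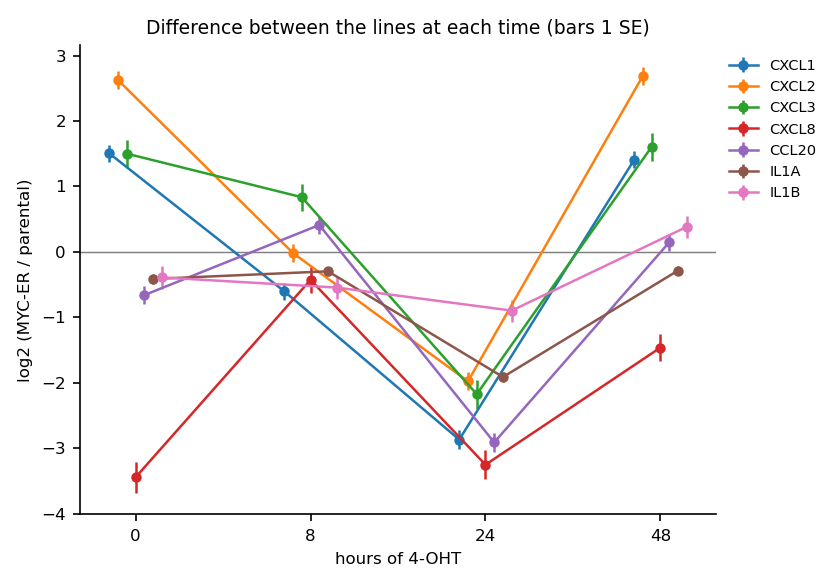
Log2 difference between MYC-ER and parental cells (vertical axis, bars 1 SE) for 7 genes at 0, 8, 24 and 48 h of 4-OHT, with lines joining the values of a gene. All 7 lie below 0 at 24 h, from -0.90 for IL1B to -3.25 for CXCL8, and at 0 and 48 h CXCL1, CXCL2 and CXCL3 lie above 0 and CXCL8 below.

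Whether the change after 4-OHT differed between the lines was tested as an interaction, subtracting the parental log2 change from the one in MYC-ER. At 8 h it was -2.11 for CXCL1 (SE 0.18, adjusted p 2.5e-09) and -2.64 for CXCL2 (SE 0.19, adjusted p 9.2e-11), and 3.02 for CXCL8 (SE 0.31, adjusted p 2.4e-08) and 1.07 for CCL20 (SE 0.19, adjusted p 6.0e-05). These 4 members passed, 2 higher and 2 lower, as did 55.2% of all genes, 27.3% higher and 27.8% lower. For IL1A, which rose in both lines, the interaction was 0.12 (SE 0.10, adjusted p 0.35) and for IL1B -0.15 (SE 0.24, adjusted p 0.62). With the GC trend removed the IL1A value was 0.44 (adjusted p 0.0012). CXCL3 was just outside the threshold at 8 h (-0.67, SE 0.30, adjusted p 0.063) and inside it in several other fits, among them the one without parental 0 h replicate 2 (-0.75, adjusted p 0.048).

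At 24 h, 5 members were lower by interaction and 0 higher, where 54.5% of all genes passed (27.7% higher and 26.8% lower): CXCL2 (-4.60), CXCL1 (-4.37), CXCL3 (-3.68), CCL20 (-2.25) and IL1A (-1.50). CXCL8 had 0.19 (SE 0.31, adjusted p 0.63); its log2 change at this time was 1.16 in MYC-ER and 0.96 in parental cells. At 48 h, CXCL8 (1.98), CCL20 (0.81) and IL1B (0.77, SE 0.24, adjusted p 0.011) passed, 3 higher and 0 lower, against 45.0% of all genes, 23.6% higher and 21.4% lower. With the GC trend removed IL1A passed as well (0.45, adjusted p 0.0015; 0.32, adjusted p 0.0076, with the length trend removed too). The values for CXCL1, CXCL2 and CXCL3 at 48 h were -0.10, 0.07 and 0.10, with adjusted p of 0.71 to 0.82.

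Ordered over all 8 groups, CXCL1 was highest in MYC-ER at 48 h and 0 h, whose libraries overlapped, and lowest in MYC-ER at 24 h, with the parental groups and MYC-ER at 8 h between them. CXCL2 had the same top and bottom groups, without overlap at either end. CXCL8 was highest in parental cells at 8 h (4.29 ± 0.83 CPM, SD, n = 3) and lowest in untreated MYC-ER cells (0.194 ± 0.052 CPM), and the 4 highest groups (parental at 8, 24 and 48 h and MYC-ER at 8 h) overlapped from neighbour to neighbour. For IL1A the top 2 groups, parental at 24 h and 8 h, overlapped, and every lower step in the order was clear of the next. For IL1B the highest groups were MYC-ER at 48 h (3.30 ± 0.15 CPM) and parental at 24 h (3.15 ± 0.26 CPM), which overlapped.

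Across the 8 group means of log2 CPM, Pearson's r was 0.90 between CXCL1 and CXCL2, 0.86 between CXCL1 and CXCL3 and 0.80 between CXCL2 and CXCL3. It was 0.90 between CCL20 and IL1A, 0.86 between CXCL8 and IL1A and 0.77 between CXCL8 and CCL20. CXCL8 ran apart from its cluster neighbours, with r of 0.09 to CXCL1, -0.24 to CXCL2 and 0.13 to CXCL3. These correlations describe 8 points that share libraries and depth. By the same measure, the genes outside the set with the most similar pattern among 14784 were GLIS2, FNDC4 and GPCPD1 for CXCL1 (r 0.97 each), DENND3, FBXO38-DT and ACSL5 for CXCL2 (0.98 each), and MOSPD1 (0.95), C3orf52 (0.93) and LGALS3 (0.93) for CXCL3. They were EFNB1, PTAFR and ENC1 for CXCL8 (0.99 each), TM4SF1 (0.98), TTC7B (0.97) and ZNF641 (0.96) for CCL20, CDH1 (0.998), C10orf55 (0.97) and TDRD7 (0.97) for IL1A, and SKAP2 (0.93), MARK1 (0.92) and PARP8 (0.91) for IL1B. No partners are named for CXCL5 and IL6, whose counts were too low. CDH1, which encodes E-cadherin, ran from 113 to 217 CPM over the groups, and IL1A from 18.7 to 70.6 CPM.

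Receptors for the chemokines were scarce in these cells. CCR6 was at 0 in all 24 libraries, and CXCR2 did not exceed a group mean of 0.0411 CPM. CXCR1 had group means of 0.360 to 0.895 CPM in parental cells and 49 to 159 counts a library. In MYC-ER cells CXCR1 was at 0 counts untreated and at 0.129, 0.0426 and 0.0551 CPM after 8, 24 and 48 h. ACKR1, a decoy receptor that binds chemokines without signalling, had group means of 0.696 to 1.10 CPM in parental cells and at most 0.116 CPM in MYC-ER cells.

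IL1R1, the signalling receptor of IL-1, moved over a wider range than either ligand. It stood at 271 ± 8.2 CPM (SD, n = 3) in untreated MYC-ER cells, 28.8 ± 1.5 at 8 h, 9.40 ± 0.68 at 24 h and 49.4 ± 0.43 at 48 h, against 23.4 to 33.4 CPM in the parental groups. The 24 h level was down by a log2 change of -4.85 (SE 0.11, adjusted p 9.3e-20), with -3.23 at 8 h and -2.46 at 48 h (adjusted p 2.5e-17 and 5.6e-15). Its lowest group was MYC-ER at 24 h, as it was for CXCL1, CXCL2, CXCL3, CCL20 and IL1A. IL1R2, a decoy that captures IL-1, went from 0.315 ± 0.060 CPM to 2.56 ± 0.41 at 8 h, 0.446 ± 0.053 at 24 h and 0.201 ± 0.012 at 48 h, with log2 changes of 3.02 (adjusted p 2.9e-12), 0.50 (adjusted p 0.024) and -0.65 (adjusted p 0.011). The IL1R2 call at 24 h was lost without MYC-ER 0 h replicate 3 (0.35, adjusted p 0.14), 24 h replicate 1 (0.46, adjusted p 0.072) or 24 h replicate 3 (0.44, adjusted p 0.079), and that at 48 h without MYC-ER 0 h replicate 2 (-0.56, adjusted p 0.051). IL1RAP, the co-receptor, rose by a log2 change of 1.33 at 8 h and 0.71 at 24 h (adjusted p 1.6e-08 and 9.1e-05, SE 0.14 for both), with 0.17 at 48 h (adjusted p 0.34).

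IL1RN, which encodes the secreted antagonist that occupies IL1R1, rose at all 3 times. Its level was 4.31 ± 0.084 CPM untreated, 24.0 ± 1.1 at 8 h, 10.4 ± 0.52 at 24 h and 11.3 ± 0.50 at 48 h in MYC-ER cells, against 23.4 to 32.3 CPM in parental groups. At 8 h the log2 change was 2.48 (SE 0.10, adjusted p 1.6e-15), and by 24 and 48 h it was 1.27 and 1.39. IL33, an alarm cytokine of the same family held in the nucleus, rose from 0.106 ± 0.060 to 6.71 ± 0.56 CPM at 8 h, 5.97 higher on the log2 scale (SE 0.28, adjusted p 3.1e-14), and stood at 0.256 ± 0.047 at 24 h and 0.0657 ± 0.018 at 48 h. GSDMD, which forms the membrane pore through which IL-1 beta leaves, fell from 25.3 ± 1.3 to 9.15 ± 0.84 CPM at 8 h and stood at 37.6 ± 0.75 CPM at 48 h, the time at which IL1B was highest. Over the other IL-1 family and processing genes, 10 of 13 were tested, and 5 rose and 4 fell at 8 h, 4 rose and 2 fell at 24 h and 8 rose and 0 fell at 48 h, where 67.6%, 61.6% and 44.1% of all genes changed. Their median log2 change at 48 h was 1.07, against 0.03 over all genes.

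**Figure D5:**
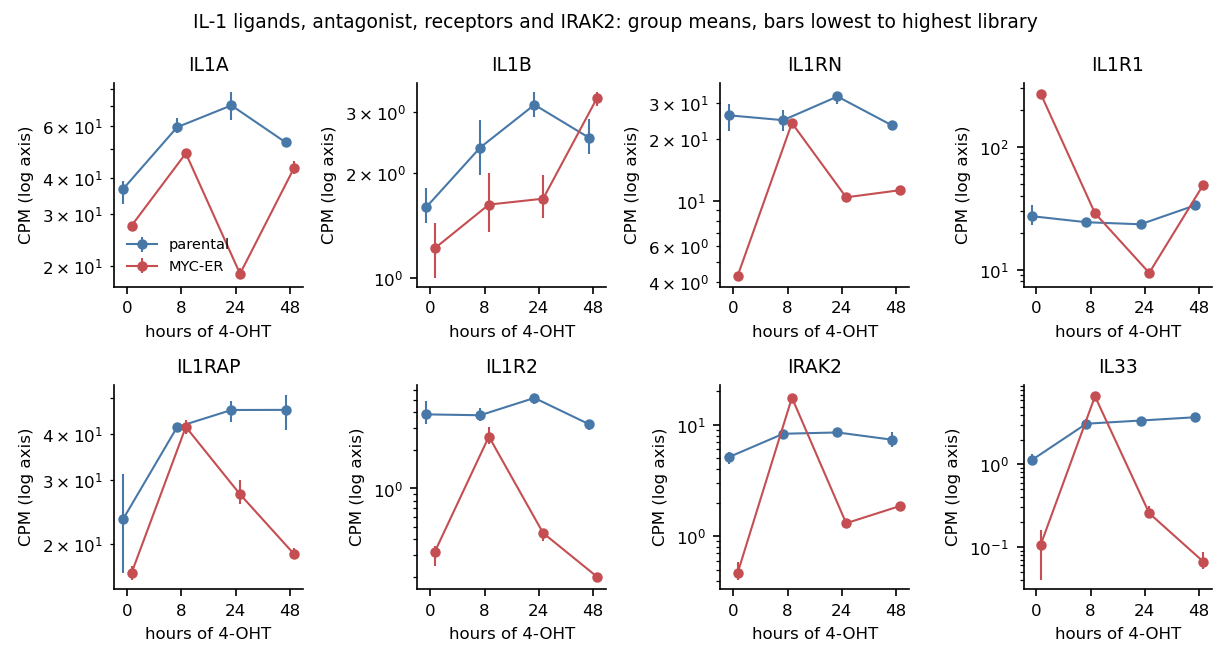
Group means in CPM (log axes) of 8 genes of the IL-1 system by hours of 4-OHT in parental (blue) and MYC-ER (red) cells, bars from the lowest to the highest library. MYC-ER IL1R1 goes from 271 to 9.40 CPM by 24 h, while MYC-ER IL1RN, IL1R2, IRAK2 and IL33 have their highest value at 8 h.

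For IL-6 the receptors were present while the ligand was at the limit of detection. IL6R stood at 153 ± 3.3 CPM in untreated MYC-ER cells and 57.1 ± 1.3 at 24 h (log2 change -1.42, SE 0.06, adjusted p 4.6e-15), and IL6ST, the shared signalling chain, at 178 ± 8.7 and 88.9 ± 7.9 CPM (-1.001, SE 0.17, adjusted p 2.8e-05). Parental IL6ST was 56.5 ± 25 CPM at 0 h, the widest spread of its groups. Over the receptor list, 8 of 9 genes were tested, and 3 rose and 2 fell in MYC-ER cells at 8 h, 3 rose and 3 fell at 24 h, and 1 rose and 4 fell at 48 h, where 67.6%, 61.6% and 44.1% of all genes changed.

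Among the signalling genes downstream of IL-1, IRAK2, a kinase of the receptor complex, had the largest change: 0.470 ± 0.10 CPM untreated, 17.5 ± 1.4 at 8 h, 1.31 ± 0.11 at 24 h and 1.87 ± 0.036 at 48 h, with a log2 change of 5.21 at 8 h (SE 0.15, adjusted p 9.1e-18). IRAK1 rose by 1.02 and CHUK, a subunit of the IkB kinase, by 0.90 on the log2 scale at 8 h. Of the IL-1 and TLR signalling list, 13 of 14 were tested, and 6 rose and 4 fell at 8 h, 3 rose and 8 fell at 24 h, and 2 rose and 7 fell at 48 h. In the IL-6 and IL-17 list, 10 of 10 were tested, and 2 rose and 7 fell at 8 h, 0 rose and 9 fell at 24 h, and 2 rose and 5 fell at 48 h. Beside both lists, 67.6%, 61.6% and 44.1% of all genes changed at these times. SOCS1, which shuts off cytokine receptors, fell from 14.9 ± 2.4 to 0.616 ± 0.089 CPM at 24 h (-4.60, SE 0.21, adjusted p 3.2e-14). SOCS3, which limits IL-6 signalling, had log2 changes of 1.59 at 8 h, -0.05 at 24 h (adjusted p 0.87) and 2.94 at 48 h. IL17RC, a subunit of the IL-17 receptor, had log2 changes of -2.003 at 8 h and -2.27 at 24 h.

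Of the genes of NF-kB itself and of its feedback loop, all 14 were tested, and 6 rose and 7 fell at 8 h, 0 rose and 10 fell at 24 h, and 7 rose and 3 fell at 48 h, while from 24 to 48 h 11 rose and 1 fell. The share of all genes changed was 67.6%, 61.6% and 44.1% against 0 h, with 30.4% higher and 31.2% lower at 24 h, and 53.7% from 24 to 48 h. Their median log2 change at 24 h was -1.04, against -0.02 over all genes. BIRC3, an NF-kB target that restrains cell death, went from 1118 ± 28 CPM untreated to 243 ± 15 at 8 h and 82.5 ± 1.8 at 24 h, and was back at 926 ± 39 CPM after 48 h (log2 change at 24 h -3.76, SE 0.10, adjusted p 9.9e-19). NFKBIZ, a nuclear cofactor of NF-kB, fell from 75.8 ± 2.0 to 12.7 ± 1.5 CPM at 8 h and 9.69 ± 0.65 at 24 h and stood at 44.8 ± 1.1 at 48 h. TRAF1 had log2 changes of -1.47, -0.92 and 0.77 at the 3 times.

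Regulators of cytokine mRNA decay were all tested, 11 of 11. In MYC-ER cells 7 rose and 3 fell at 8 h, 4 rose and 6 fell at 24 h, and 3 rose and 4 fell at 48 h, with median log2 changes of 0.57, -0.37 and -0.16, against -0.10, -0.02 and 0.03 over all genes, of which 67.6%, 61.6% and 44.1% changed. ARID5A, which protects IL6 mRNA from decay, rose from 1.47 ± 0.23 to 9.19 ± 1.0 CPM at 8 h (log2 change 2.64, SE 0.12, adjusted p 1.4e-14). ZFP36L2, a relative of the AU-rich element binding protein tristetraprolin, rose by 1.28 on the log2 scale at 8 h (SE 0.07, adjusted p 8.5e-13) and fell by 0.55 at 24 h (adjusted p 8.1e-07). HNRNPD, or AUF1, which also binds AU-rich elements, rose by 1.12 on the log2 scale at 8 h, 1.01 at 24 h and 0.46 at 48 h.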

How the data were processed

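RNA was sequenced from 24 libraries, 3 per line and time, and the deposited table holds whole-number counts for 60668 genes. Reads were trimmed with Trimmomatic 0.39, aligned to GRCh38 with STAR and counted with StringTie 2.1.3b, per the submitters' processing notes. StringTie's counts are estimates, so limits taken from 3 counts are approximate. The annotation release, the strand setting and the handling of reads with several matches are not given in the sources used here. Lanes held 3 libraries each, but the lane of each library is not given, so the counts were not corrected for lane. Symbols were matched for 60340 of the 60668 identifiers. Library totals differed by 1.33-fold, and a count of 0 allows up to 0.0219 CPM in the smallest library.

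Counts were scaled by TMM and filtered with filterByExpr, which left 22158 genes, and tested with edgeR 4.0.16 (R 4.3.3, limma 3.58.1) by the two-sided quasi-likelihood F test, with 1 mean per group fitted over all 24 libraries and Benjamini-Hochberg adjustment over all genes tested, at 0.05. The procedure was tested on simulated data in which 200 genes were changed, as many up as down. In the real MYC-ER data far more genes changed, so this simulation does not test the scaling in that setting. Promoters came from RefSeq (GRCh38.p14), and transcripts, GC content and positions from GENCODE v29. The 9 genes and the lists were chosen with earlier results of these data known. All 9 genes are named. From each other list, up to 3 genes called at 8 h in MYC-ER with the largest change and at least 1 CPM in their highest group are named, with list members in the same gene cluster or that bind a member. For each member, the 3 genes with the highest Pearson correlation over the 8 group means are named. Alternatives were other scalings, filters, a replicate block, fits of only the groups compared, each library left out and DESeq2 1.42.0. Removal of GC and length trends (lowess span 0.3) was added after seeing the data, as was leaving CXCL5 out of the counts over the set. Replicate numbers gave no clear pairing of the libraries.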

Additional observations from a re-analysis of the deposited data

Results flagged for a closer look

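For 12 gene and time combinations the change after 4-OHT differed between the lines by the interaction test in edgeR, given as the MYC-ER log2 change minus the parental one. At 8 h these were CXCL1 (-2.11, SE 0.18, adjusted p 2.5e-09), CXCL2 (-2.64, SE 0.19, adjusted p 9.2e-11), CXCL8 (3.02, SE 0.31, adjusted p 2.4e-08) and CCL20 (1.07, SE 0.19, adjusted p 6.0e-05). CXCL1 and CXCL2 fell in MYC-ER cells while they rose in parental cells, and CXCL8 and CCL20 rose in both lines, more in MYC-ER.

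At 24 h the interaction was -4.37 for CXCL1 (SE 0.19, adjusted p 3.7e-14), -4.60 for CXCL2 (SE 0.20, adjusted p 1.8e-14), -3.68 for CXCL3 (SE 0.31, adjusted p 1.5e-09), -2.25 for CCL20 (SE 0.20, adjusted p 3.4e-09) and -1.50 for IL1A (SE 0.10, adjusted p 5.3e-11). Each of these 5 genes fell in MYC-ER cells and rose in parental cells. At 48 h it was 1.98 for CXCL8 (SE 0.31, adjusted p 2.1e-05), 0.81 for CCL20 (SE 0.19, adjusted p 0.0017) and 0.77 for IL1B (SE 0.24, adjusted p 0.011), genes that rose in both lines. With the GC trend removed, the parental rises at this time did not pass for CXCL8 (0.06, adjusted p 0.88) and CCL20 (0.36, adjusted p 0.083). Across genes, the interaction moved with GC content too, with Spearman's rho of 0.236, 0.258 and 0.475 at 8, 24 and 48 h.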

How the results depend on the processing

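With CXCL5 included, the members called fell from 8 to 5 (parental 24 h) and from 5 to 3 (parental 48 h) with the GC trend removed. With 1 library left out, the count for the lines at 8 h ranged from 3 to 5. Of 105 gene-by-comparison values of the members, 97 kept direction and side of the threshold under library size alone, 102 under DESeq2's Wald test and 93 with GC and length trends removed, and with 1 library left out 2469 of 2520 did. Directions reversed only for values that had not passed the threshold: CXCL1 at 48 h in MYC-ER (-0.025, GC and length), IL1B from 8 to 24 h (-0.067 GC, -0.13 GC and length, -0.0695 to 0.23 with 1 library out), CXCL3 in parental cells at 48 h (-0.027 GC, -0.14 to 0.22 with 1 library out), and CXCL2 between lines at 8 h (0.0116 with DESeq2 size factors, 0.0117 with its Wald test, 0.0757 GC, 0.20 GC and length, -0.0525 to 0.029 with 1 library out). Among interactions these were IL1A (-0.0028, library size alone) and IL1B (8.76e-05, GC) at 8 h, CXCL8 at 24 h (-0.0143 to 0.39 with 1 library out), and at 48 h CXCL1 (2.001e-04, library size alone), CXCL2 (-0.13 GC and length, -0.0081 to 0.17 with 1 library out) and CXCL3 (-0.0634 GC and length, -0.028 to 0.33 with 1 library out). Of the list genes they were SOCS3 at 24 h (0.0663 library size alone, 0.0323 GC, 0.0098 GC and length, -0.16 to 0.11 with 1 library out) and, under library size alone, IRAK1 (0.0325) and CCL28 (0.10) at 48 h. The cause was not tested.

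The replicate block changed the call of 0 of these results, with CXCL8 at 8 h in MYC-ER at 4.04 (adjusted p 2.2e-11) and IL1A at 24 h at -0.55 (adjusted p 3.6e-06). The numbers gave no clear pairing. Same-numbered libraries of different groups correlated at -0.0776 to 0.0943 in their deviations, and other-numbered ones at -0.0577 to 0.0849. Of 84 same-numbered and 168 other-numbered pairs, 0 were over 0.1, and 12 of 24 libraries were best matched by their own number. Correlations this weak do not exclude a pairing. In fits of only the groups compared, 1452, 4923 and 3274 of all genes passed in parental cells at 8, 24 and 48 h, against 6870, 9503 and 8978. Library size alone moved the share of called genes that were higher from 53.0% to 73.8% at 48 h in MYC-ER, from 51.2% to 67.8% between 8 and 24 h, from 47.6% to 60.7% between lines at 24 h, from 48.2% to 59.8% at 48 h and from 52.5% to 63.5% for the interaction at 48 h. CXCL5, IL6 and the receptors CXCR1 and CXCR2 are limited by depth.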

Other observations

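CSF3, CSF1 and TSLP were picked from the other cytokines for the largest changes at 8 h in MYC-ER cells. Their wide movement at that time follows from this choice. The median log2 change of the 13 other cytokines tested was 0.45 at 8 h, against -0.10 over all genes. CSF3, which drives neutrophil production, stood at 3.42 ± 0.28 CPM (SD, n = 3) in untreated MYC-ER cells, 95.1 ± 0.93 at 8 h, 2.003 ± 0.20 at 24 h and 8.30 ± 0.84 at 48 h, with a log2 change of 4.80 at 8 h (SE 0.11, adjusted p 2.3e-19 in edgeR). It was at 26.4 to 35.2 CPM in the parental groups. CSF1, the macrophage growth factor, went the other way, from 54.4 ± 0.27 CPM to 3.64 ± 0.22 at 8 h and 4.49 ± 0.31 at 24 h, then 128 ± 0.25 at 48 h, and stood at 3.92 to 5.03 CPM in parental cells. TSLP, an epithelial cytokine that acts on dendritic cells, fell at 8 h (log2 change -2.25, SE 0.34, adjusted p 4.9e-06). Of 13 other cytokines tested among 14, 5 rose and 4 fell at 8 h, 4 rose and 5 fell at 24 h, and 9 rose and 0 fell at 48 h, where 67.6%, 61.6% and 44.1% of all genes changed, with a median log2 change at 48 h of 1.24 against 0.03 over all genes.

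Among other chemokines, 8 of 17 were tested, and 1 rose and 2 fell at 8 h, 3 rose and 2 fell at 24 h, and 4 rose and 1 fell at 48 h, against the same shares of all genes. CXCL14, a chemokine of resting epithelium, stood at 61.2 ± 5.3 CPM in untreated MYC-ER cells and 4.12 ± 0.64 at 8 h (log2 change -3.89, SE 0.16, adjusted p 2.6e-15), against 0.340 to 0.607 CPM in parental groups. CXCL16 rose by 0.46 and CCL28 had a log2 change of -0.74 at 8 h. CXCL6 was at 0 in all libraries, and PPBP and PF4, the other genes of the chromosome 4 cluster examined, had at most 5 and 23 counts in a library.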
